A study of Mus musculus with 12 samples.

Results

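Expression of 8 genes of the pentose phosphate pathway was compared in kidney cortex of mice with and without a constitutively active HIF1α. They are the 4 genes of the oxidative branch (G6pdx, H6pd, Pgls and Pgd) and the 4 of the nonoxidative branch (Rpia, Rpe, Tkt and Taldo1), found by symbol among the 37681 Ensembl genes of the count table. All 8 had enough reads to be among the 19399 genes tested. The TG+ group held 3 TRACK mice (43-29, 43-49 and 43-75), which carry the γ-HIF1αM3 transgene, a mutated HIF1α that is active in normal oxygen and is expressed in renal proximal tubules. The TG- group held 3 wild-type littermates (43-26, 43-50 and 43-76). All were untreated C57BL/6 males, 18 months old, and RNA came from a thin outer slice of cortex of each of the 2 kidneys, which gave 12 libraries.

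The pentose phosphate pathway takes glucose 6-phosphate away from glycolysis. Its oxidative branch yields NADPH, the reducing power for glutathione recycling and lipid synthesis, and a pentose phosphate. Its nonoxidative branch makes ribose 5-phosphate for nucleotides and exchanges carbon units in both directions with fructose 6-phosphate and glyceraldehyde 3-phosphate of glycolysis. The proximal tubule uses NADPH in the defence against oxidants and in xenobiotic metabolism, and HIF1α is best known among metabolic regulators for raising glycolytic genes.

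None of the 8 genes reached the threshold of the study, a fold change above 2 or below 0.5 with an adjusted p below 0.01, by the quasi-likelihood test of edgeR, with p adjusted over all tested genes by Benjamini-Hochberg. The share called among all tested genes was 3.98%. DESeq2 also called 0 of the 8, and 4 of the 8 had an unadjusted p under 0.05 in edgeR, as did 39.1% of all tested genes. At an adjusted p under 0.05, Tkt (transketolase) rose and Taldo1 (transaldolase) fell. This was 1 of 8 genes in the upward direction, against 15.4% of all tested genes, and 1 of 8 in the downward direction, against 10.9%, so the members' shares were near those of all genes. The 95% intervals of the 8 changes ran from a 0.769-fold to a 1.32-fold level in TG+, so for each of the 8 genes the interval left out a 2-fold change in either direction. Across the 8 genes the median log2 fold change was 0.06, beside 0.01 for all tested genes.

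**Figure D1:**
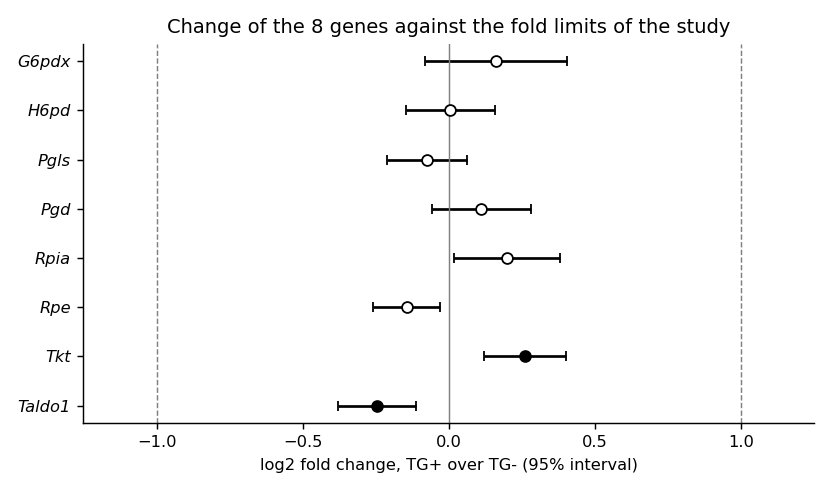
Log2 fold change of each gene (x axis, TG+ over TG-) with its 95% interval from edgeR, 3 mice per group, with filled circles for an adjusted p under 0.05 and dashed lines at a fold of 2 and 0.5. All 8 intervals lie well inside the dashed lines, and only those of Tkt, Rpia, Rpe and Taldo1 leave out 0.

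Totals lay between 48052131 and 60506785 reads per mouse, and each of the 8 genes had between 622 and 25493 reads in every mouse. Levels below are CPM, which are counts per library size after TMM scaling, with the 2 kidneys of a mouse summed, unless RPKM is named. The reads of Hif1a did not separate the groups (86.3 to 109 CPM in TG+ and 103 to 107 CPM in TG-, log2 fold change -0.12, adjusted p 0.34 in edgeR), so they give no check of the transgene labels, and whether transgene reads count towards this gene is not given in the sources used here. Markers of several cell types moved with the genotype. Of 8 proximal tubule markers 4 were lower and 0 higher at an adjusted p under 0.05 in edgeR (15.4% of all tested genes were higher and 10.9% lower). The summed level of the 8 was 24148 to 27397 CPM in TG+ and 31895 to 33783 CPM in TG-. Most of it came from Kap, which did not pass (means of 16181 and 17074 CPM, adjusted p 0.53 in edgeR), and Slc34a1, which fell (5075 and 8599 CPM). All 8 had a log2 fold change below 0. Markers of immune cells (8 of 10 higher, sums of 183 to 205 against 103 to 136 CPM), endothelium (5 of 5 higher, 461 to 487 against 269 to 356 CPM), stroma (3 of 4 higher, 161 to 197 against 99.8 to 120 CPM) and proliferation (4 of 4 higher, 11.2 to 22.8 against 5.79 to 8.74 CPM) went the other way. The proliferation marker Ccnb1 had only 4 to 39 reads in a mouse (0.222 to 0.688 CPM in TG+ and 0.0819 to 0.156 CPM in TG-). It passed the filter on reads through TG+ alone, so it could only be counted as higher. For 6 markers of other nephron segments 0 passed (3271 to 4308 against 3472 to 3573 CPM; 5 of the 6 had a log2 fold change above 0). None of these markers was at 0 in any list. In bulk tissue, fewer cells of a type and less RNA per cell cannot be told apart, and the part of these markers' cell types in the changes below was not tested.

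The windows around the starts of 4 genes are printed to show where letters of HIF sites stand. Tkt and Taldo1 are the members that passed the test, G6pdx is the entry enzyme, and Pfkp is a glycolytic gene outside the pathway whose mRNA rose 10.1-fold (log2 3.33 ± 0.13 SE, edgeR adjusted p 6.33e-06). Each sequence is RefSeq's for GRCm38.p6, from 250 bases before to 50 bases after the start, 5′ to 3′ on the strand of the gene. Capitals mark the letters ACGTG and GCGTG, which are the core of HIF binding sites, and TGACNNNGC, the core of the antioxidant response element bound by NRF2, on either strand, so that a match to the opposite strand is printed as its reverse complement. Bases are counted from 1 at the start, with negative numbers before it. The Tkt window is chr14:30548881-30549180 (+), that of Taldo1 chr7:141391910-141392209 (+), that of G6pdx chrX:74428831-74429130 (-) and that of Pfkp chr13:6648722-6649021 (-).
Tkt: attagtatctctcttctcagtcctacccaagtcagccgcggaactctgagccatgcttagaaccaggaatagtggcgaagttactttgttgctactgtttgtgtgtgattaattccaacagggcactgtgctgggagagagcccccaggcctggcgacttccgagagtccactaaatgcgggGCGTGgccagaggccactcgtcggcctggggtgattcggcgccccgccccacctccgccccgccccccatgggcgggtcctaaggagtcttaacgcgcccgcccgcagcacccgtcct
Taldo1: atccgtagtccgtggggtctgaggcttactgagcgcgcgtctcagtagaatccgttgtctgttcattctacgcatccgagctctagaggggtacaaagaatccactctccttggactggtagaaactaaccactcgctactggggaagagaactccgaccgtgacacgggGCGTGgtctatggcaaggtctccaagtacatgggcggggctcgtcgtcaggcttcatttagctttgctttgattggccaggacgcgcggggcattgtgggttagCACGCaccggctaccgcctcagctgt
G6pdx: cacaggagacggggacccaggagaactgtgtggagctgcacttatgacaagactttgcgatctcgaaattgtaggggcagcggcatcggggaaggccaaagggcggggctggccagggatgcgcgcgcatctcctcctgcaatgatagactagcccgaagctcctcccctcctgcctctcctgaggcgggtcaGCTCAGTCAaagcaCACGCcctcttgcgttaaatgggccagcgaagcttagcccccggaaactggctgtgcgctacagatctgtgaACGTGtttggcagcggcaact
Pfkp: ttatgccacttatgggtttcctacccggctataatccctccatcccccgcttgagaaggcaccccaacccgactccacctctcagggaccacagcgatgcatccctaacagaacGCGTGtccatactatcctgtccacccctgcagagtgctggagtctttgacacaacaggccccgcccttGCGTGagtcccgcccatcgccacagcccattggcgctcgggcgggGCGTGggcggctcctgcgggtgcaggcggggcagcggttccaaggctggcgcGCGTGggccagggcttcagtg
The Tkt window held 1 such HIF core, from base -68 to -64 before the start, and the Taldo1 window held 2, from -80 to -76 and from 25 to 29. The G6pdx window held 2 cores, from -43 to -39 and from 30 to 34, and 1 antioxidant element core from -57 to -49. The Pfkp window held 4, and the windows of Gpi1 and Hk2, glycolytic genes that also rose, held 0 and 2. A HIF core in either form stood in a window of 6 of the 8 members, and in 43.8% of all 32851 windows (ACGTG in 19.6% and GCGTG in 32.4%). H6pd and Rpe were the members without one, and Pgd was represented by 2 windows, 1 of them with a core. The antioxidant element core stood in a window of 2 members, G6pdx and Pgd, and in 12.4% of all windows. Tkt and Taldo1, which moved in opposite directions, both hold GCGTG, and a match of letters says nothing of whether HIF1α binds there.

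In the oxidative branch 0 of 4 genes passed the adjusted p of 0.05 in edgeR, which 26.2% of all tested genes passed. G6pdx, the cytosolic glucose 6-phosphate dehydrogenase that commits glucose 6-phosphate to the pathway, was at 29.7, 23.4 and 28.4 CPM in the TG+ mice 43-29, 43-49 and 43-75. In the TG- mice 43-26, 43-50 and 43-76 it was at 26.7, 22.3 and 23.8 CPM. The lowest TG+ mouse lay inside the TG- range, so the groups overlapped. The log2 fold change was 0.16 ± 0.10 (SE), with an adjusted p of 0.30. G6pdx was also the most variable of the 8 between mice, with a coefficient of variation of 12.2% in TG+ and 9.12% in TG- (n = 3 each).

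G6pdx has an almost identical intronless copy, G6pd2, and how reads were assigned between the copies is not given in the sources used here. G6pd2 was at 6.61 to 8.63 CPM in TG+ and 6.16 to 6.84 CPM in TG-, with a log2 fold change of 0.21 ± 0.12 (SE) and an adjusted p of 0.22 in edgeR. With the reads of both copies summed, an alternative chosen after seeing the data, the log2 fold change was 0.17 with an adjusted p of 0.25. G6pdx also shares exon sequence with Ikbkg on the opposite strand in GENCODE M21 (log2 fold change of Ikbkg -0.14, adjusted p 0.10), and the use of strand in the counting is not stated.

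Pgls, the lactonase that follows G6pdx, had 27.8, 30.1 and 29.9 CPM in TG+ and 29.5, 31.6 and 31.2 CPM in TG-, with a log2 fold change of -0.07 ± 0.06 (SE). Pgd, the 6-phosphogluconate dehydrogenase that releases the second NADPH, had 121, 102 and 118 CPM in TG+ against 108, 107 and 101 CPM in TG-. Its log2 fold change was 0.11 ± 0.07 (SE), and its adjusted p of 0.31 was close to the 0.40 of Pgls. Mouse 43-49 had the lowest TG+ value of both G6pdx and Pgd. Without it the log2 fold changes were 0.25 (adjusted p 0.073) and 0.18 (adjusted p 0.052), whereas without 43-29, the TG+ mouse with the highest value of both, they were 0.084 (adjusted p 0.65) and 0.053 (adjusted p 0.69). Under scaling by library size alone Pgd passed, with a log2 fold change of 0.23 (adjusted p 0.033), which is 0.10 above the median of all tested genes in that scaling.

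H6pd, which carries out the first steps of the branch inside the endoplasmic reticulum, had almost the same level in both groups. It was at 444, 411 and 475 CPM in TG+ and at 428, 446 and 451 CPM in TG-. The log2 fold change was 0.00 with a 95% interval from -0.15 to 0.16, and its sign turned with the processing. The best known user of its NADPH, Hsd11b1, which regenerates active glucocorticoid in the same compartment, was at 377, 243 and 349 CPM in TG+ and at 109, 94.4 and 96.5 CPM in TG-. The 2 groups of Hsd11b1 stood far apart, a 3.23-fold rise (log2 1.69 ± 0.16 SE, adjusted p 0.00033 in edgeR), whereas the interval of H6pd ended at a fold of 1.11.

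**Figure D2:**
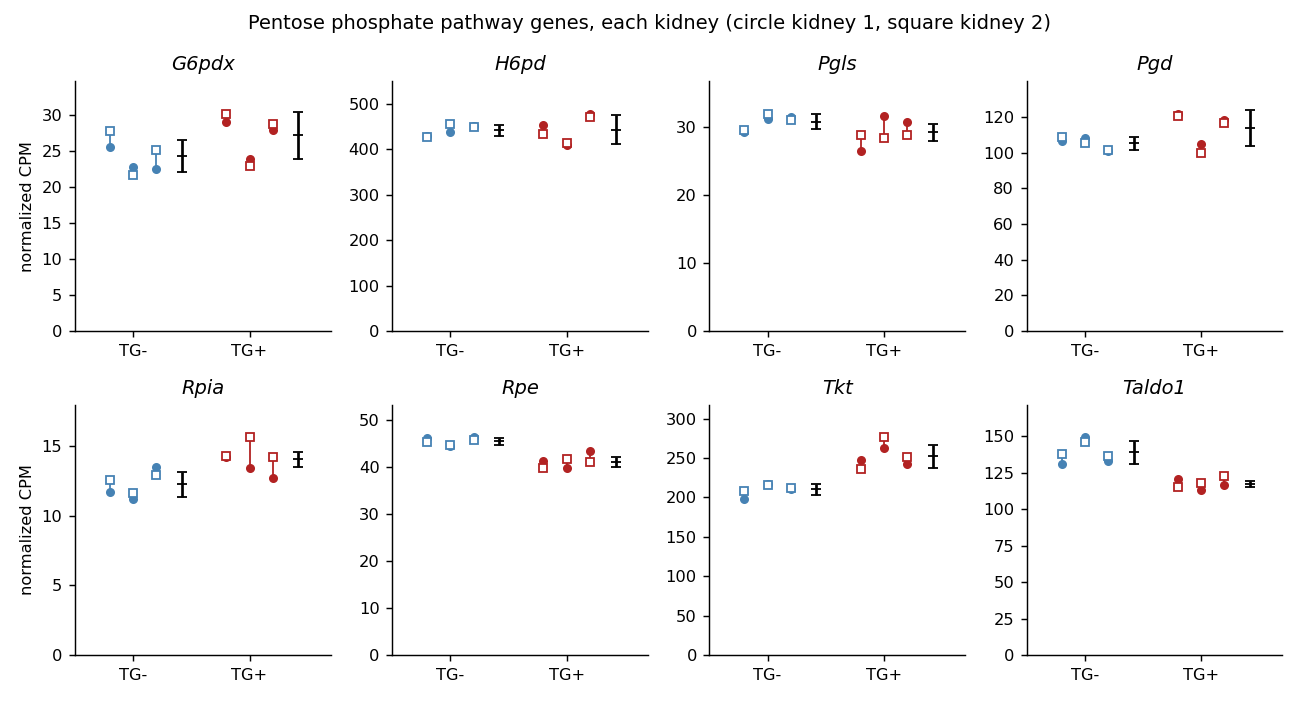
Normalized CPM (y axis, from 0) of each gene in kidney 1 (circle) and kidney 2 (square) of each mouse, joined by a line, with the mean and SD over the 3 mice of each group in black. The TG- and TG+ kidneys of Tkt and Taldo1 stand apart in opposite directions, whereas those of the 4 oxidative genes overlap.

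In the nonoxidative branch all 4 genes separated the 3 TG+ from the 3 TG- mice without overlap, 2 upwards and 2 downwards. Of the 8 members as a whole, 2 separated the groups upwards and 2 downwards, near the 23.4% and 20.8% of all tested genes. Tkt, which moves 2-carbon units between sugar phosphates and needs thiamine diphosphate, was at 241, 268 and 247 CPM in TG+ and at 203, 217 and 211 CPM in TG-. Every TG+ mouse lay above every TG- mouse, and the level was 1.20 times higher (log2 0.26 ± 0.06 SE, 95% interval 0.12 to 0.40, adjusted p 0.017 in edgeR). An exact permutation test, which has 20 ways to assign the 6 mice, gave a 2-sided p of 0.1, the smallest it can give. Without the TG- mouse 43-26 the adjusted p was 0.058, and without the TG- mouse 43-76 it was 0.063.

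Taldo1, which moves 3-carbon units and works with Tkt on the same pool of sugar phosphates, went the other way. It was at 118, 115 and 119 CPM in TG+ and at 134, 148 and 135 CPM in TG-. Every TG+ mouse lay below every TG- mouse, and Taldo1 fell by 0.25 on the log2 scale (SE 0.06, 95% interval -0.38 to -0.11, adjusted p 0.018 in edgeR), to 0.844 times the TG- level, with an exact permutation p of 0.1. The TG- mouse 43-50 had the highest value, and without it the adjusted p was 0.052. With scaling by library size alone, which moved the median of all tested genes to 0.13 on the log2 scale, Taldo1 was at -0.13 (adjusted p 0.10), or 0.26 below that median, and Tkt was at 0.38 (adjusted p 0.0044), or 0.25 above it.

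The ratio of Tkt to Taldo1 within a mouse does not depend on the scaling of the library. The ratio was 0.742, 0.842 and 0.746 in TG+ and 0.546, 0.530 and 0.566 in TG- (deposited RPKM, which are per transcript length). The log2 ratio was -0.37 ± 0.10 (SD, n = 3) in TG+ and -0.87 ± 0.05 (SD, n = 3) in TG-, a difference of 0.50. This ratio was chosen after the values of both genes had been seen, and since each gene separated the groups in opposite directions its groups had to stand apart, so it is given as a description, with no test.

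**Figure D3:**
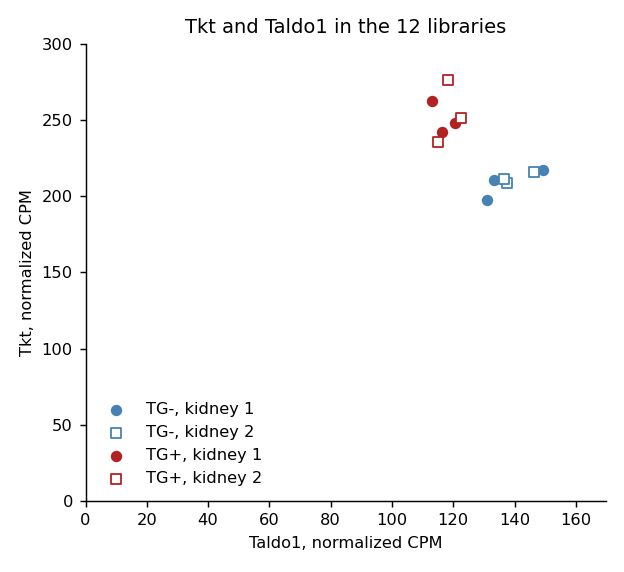
Normalized CPM of Tkt (y axis) against Taldo1 (x axis) in each of the 12 libraries, both axes from 0, with filled circles for kidney 1 and open squares for kidney 2. The 6 TG+ libraries sit higher and further left than the 6 TG- libraries on each axis, with no overlap between the groups.

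Rpia, the isomerase that makes ribose 5-phosphate, was at 14.3, 14.4 and 13.4 CPM in TG+ and at 12.1, 11.4 and 13.2 CPM in TG-. Its groups did not overlap, but the gap between 13.4 and 13.2 CPM was narrow. The log2 fold change of 0.20 ± 0.08 (SE) had an adjusted p of 0.10 in edgeR, and under scaling by library size alone it was 0.32 (adjusted p 0.029), or 0.19 above the median of all tested genes there. Rpe, the epimerase that makes xylulose 5-phosphate for Tkt, was at 40.5, 40.7 and 42.4 CPM in TG+ and at 45.9, 44.7 and 46.1 CPM in TG-. Its log2 fold change was -0.14 ± 0.05 (SE) with an adjusted p of 0.067. The coefficients of variation of Rpe between mice were 2.51% in TG+ and 1.67% in TG-, the latter the lowest of the 8 in that group, and under scaling by library size alone its log2 fold change was -0.02, which is 0.16 below the median of all tested genes in that scaling. Its exons overlap those of Kansl1l on the opposite strand, a gene that fell by 0.40 on the log2 scale (adjusted p 0.019 in edgeR, 59.7 to 74.1 CPM in TG+ and 80.4 to 96.0 CPM in TG-). The part of such shared reads in the value of Rpe was not tested.

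The 2 kidneys of a mouse gave close values. Over 8 genes and 6 mice the median absolute log2 difference between kidney 1 and kidney 2 was 0.06, and 41 of 48 differences were under 0.1. The largest was 0.22, for Rpia in mouse 43-49, which is more than the 0.20 between the genotypes for that gene. For Tkt and Taldo1 the largest differences between kidneys were 0.08 and 0.07, smaller than the 0.26 and 0.25 between the genotypes. Kidney 1 alone and kidney 2 alone gave the same signs for Tkt (log2 0.27 and 0.27) and for Taldo1 (-0.24 and -0.24), all with an adjusted p under 0.05.

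Per transcript length, on the scale of the deposited RPKM, the pathway was led by 3 genes in both groups. In TG- the order of the levels was Taldo1 (49.7 ± 2.71 RPKM, SD, n = 3 mice), H6pd (43.2 ± 1.21), Tkt (27.2 ± 0.887) and Pgd (13.3 ± 0.442). Then came Rpe (5.17 ± 0.0909 RPKM), G6pdx (4.89 ± 0.456), Pgls (4.67 ± 0.170) and Rpia (2.00 ± 0.148). G6pdx overlapped both of its neighbours, Rpe and Pgls, and the other neighbours did not overlap. Its copy G6pd2 was at 4.01 ± 0.215 RPKM in TG-, and the part of reads shared by the copies in the rank of G6pdx was not tested. In TG+ the first places changed, with H6pd at 42.2 ± 3.17, Taldo1 at 40.9 ± 0.817 and Tkt at 31.8 ± 1.84 RPKM (SD, n = 3), and there H6pd and Taldo1 overlapped. G6pdx at 5.33 ± 0.643 and Rpe at 4.57 ± 0.130 RPKM overlapped in TG+ as well.

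The cytosolic enzymes G6pdx, Pgls and Pgd together had 23.6 ± 1.77 RPKM in TG+ and 22.8 ± 0.578 RPKM in TG- (SD, n = 3), less than H6pd alone in both groups. Tkt made up 21.9% ± 1.75 of the summed RPKM of the 8 genes in TG+ and 18.1% ± 0.203 in TG-, and Taldo1 28.2% ± 0.256 and 33.1% ± 1.04 (SD, n = 3). The sum of all 8 was 145 ± 4.23 RPKM in TG+ and 150 ± 3.76 RPKM in TG-. The scale of the deposited RPKM differed between the groups, as given under the processing. These sums are therefore given as levels, not as a change between the genotypes. The levels of these mRNAs are not activities, and no enzyme or metabolite was measured in these files.

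**Figure D4:**
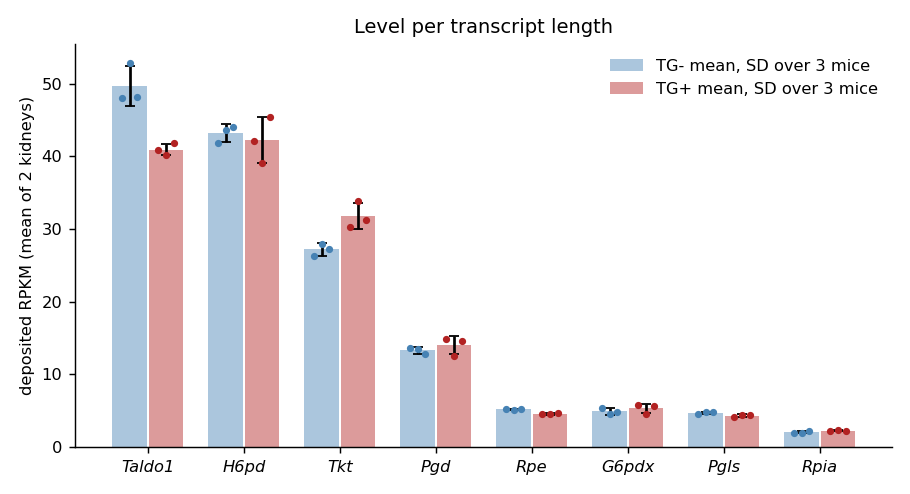
Deposited RPKM (y axis, from 0) of each gene, as the mean over 3 mice with SD (bars and error bars) and each mouse as a point, with genes in the order of the TG- mean. Taldo1, H6pd and Tkt lead in both groups, with Taldo1 lower and Tkt higher in TG+.

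At the branch point just outside the pathway, among 12 genes of the shared hexose and triose steps, 8 rose and 1 fell at an adjusted p under 0.05 in edgeR, where 15.4% of all tested genes rose and 10.9% fell, and the median log2 fold change was 0.71. Gpi1, the isomerase that takes glucose 6-phosphate down glycolysis in competition with G6pdx, was at 615, 444 and 572 CPM in TG+ and at 108, 104 and 107 CPM in TG- (5.12-fold higher, log2 2.36 ± 0.12 SE, adjusted p 1.63e-05). The phosphofructokinases Pfkp and Pfkl, of which Pfkl had a log2 fold change of 2.12 (adjusted p 3.5e-06), rose with it. Hk2, a hexokinase that makes glucose 6-phosphate, went from 0.438 to 0.858 CPM in TG- to 42.6 to 45.9 CPM in TG+ (log2 6.16 ± 0.17 SE, adjusted p 1.87e-06). Gapdh (log2 0.82), Hk3 (0.79), Hk1 (0.63) and Tpi1 (0.43) also rose, and Fbp2, a fructose bisphosphatase, fell by 0.65. Gpi1 and G6pdx draw on the same substrate, and the interval of G6pdx ended at a fold of 1.32.

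**Figure D5:**
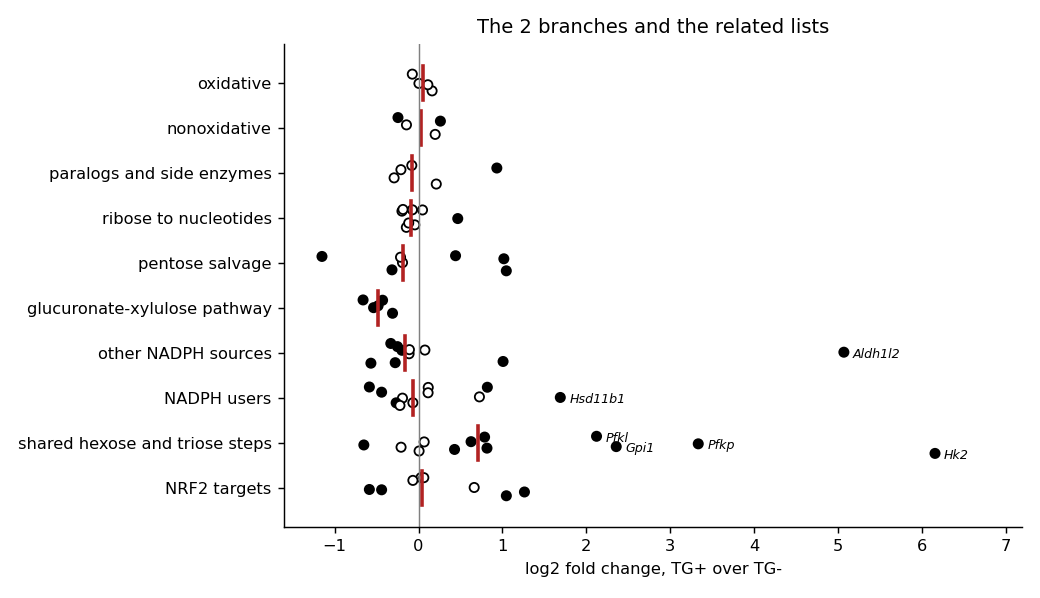
Log2 fold change (x axis, TG+ over TG-) of every tested gene of the 2 branches and of the 8 related lists (rows), with filled circles for an adjusted p under 0.05 and a red bar at the median of the list. The 8 members cluster near 0, whereas Hk2, Pfkp, Gpi1, Pfkl, Aldh1l2 and Hsd11b1 lie beyond 1.5.

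A second supply of pentose, the glucuronate-xylulose route, delivers xylulose 5-phosphate made from inositol or glucuronate to the nonoxidative branch. All 5 of its genes fell at an adjusted p under 0.05 in edgeR, with a median log2 fold change of -0.48, where 10.9% of all tested genes fell. Xylb, the xylulokinase at its end, was at 515, 468 and 516 CPM in TG+ and at 749, 697 and 728 CPM in TG- (log2 -0.54 ± 0.06 SE, adjusted p 0.00088). Dcxr, the xylulose reductase, was at -0.43 (adjusted p 0.00089), Akr1a1, the aldehyde reductase, at -0.48 (adjusted p 0.0015), and Miox, the inositol oxygenase that opens the route in the proximal tubule, at -0.66. Cryl1, the gulonate dehydrogenase, was at -0.31. The 4 proximal tubule markers that fell did so alongside, and their part in this was not tested.

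Enzymes that salvage or dispose of pentoses moved in both directions. Of 7 tested, 3 rose and 2 fell at an adjusted p under 0.05 in edgeR, beside 15.4% higher and 10.9% lower among all tested genes. Upp1 and Upp2, uridine phosphorylases that free ribose 1-phosphate from uridine, changed in opposite directions. Upp1 was at 15.6, 11.8 and 13.4 CPM in TG+ and at 7.68, 6.78 and 5.67 CPM in TG- (log2 1.02 ± 0.14 SE, adjusted p 0.0020). Upp2 was at 8.61, 7.23 and 7.97 CPM in TG+ and at 12.4, 16.4 and 24.1 CPM in TG- (log2 -1.15 ± 0.22 SE, adjusted p 0.0080). The groups of both genes stood apart, and both passed the threshold of the study. Upp2 lost that call in kidney 1 alone, with library size alone and in 5 of 6 fits with 1 mouse left out (each except that without 43-26, adjusted p up to 0.030). Upp1 lost it in kidney 2 alone and without 43-29 or 43-76 (log2 0.90 and 0.91). Pgm1, of the phosphoglucomutase family, passed as well, at 184 to 234 CPM in TG+ and 98.9 to 112 CPM in TG- (log2 1.05, adjusted p 0.00037), but not without 43-29 (log2 0.97). Pgm2 rose by 0.44 and Tymp, the thymidine phosphorylase, fell by 0.32. Pnp was not found by its symbol and was not analysed here.

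Downstream of ribose 5-phosphate, 1 of 8 genes passed, against 26.2% of all tested genes. Hprt, which salvages purines with phosphoribosyl pyrophosphate, rose by 0.47 on the log2 scale (SE 0.08, adjusted p 0.0040 in edgeR), from 65.5 to 69.6 CPM in TG- to 83.0 to 98.7 CPM in TG+. Prps1, the synthetase that makes phosphoribosyl pyrophosphate out of ribose 5-phosphate, was at -0.20 (adjusted p 0.065), and its associated protein Prpsap1 at -0.15 (adjusted p 0.081). The other 5 had log2 fold changes from -0.19 to 0.05.

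Of the side enzymes and copies of the pathway, 1 of 5 tested passed, near the 26.2% of all tested genes. Rgn, a gluconolactonase, was at 11.6, 8.69 and 9.42 CPM in TG+ and at 5.19, 5.18 and 5.18 CPM in TG- (log2 0.93 ± 0.12 SE, adjusted p 0.0014 in edgeR). Tigar, a phosphatase known to favour the pathway over glycolysis, had a log2 fold change of -0.29 (adjusted p 0.079), and without 43-49 it was -0.40 (adjusted p 0.024). The transketolase-like genes Tktl1 and Tktl2 had at most 3 and 0 reads in a mouse and were not tested.

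The pathway is one of several sources of NADPH. Of 10 genes listed as other sources, 2 rose and 5 fell at an adjusted p under 0.05 in edgeR, beside 15.4% higher and 10.9% lower among all tested genes. The list counts the NAD kinases Nadk and Nadk2, which make the NADP+ that the other enzymes reduce and are not sources themselves. Aldh1l2, the mitochondrial formyltetrahydrofolate dehydrogenase, was at 159, 159 and 154 CPM in TG+ and at 4.48, 4.97 and 4.58 CPM in TG- (33.6-fold, log2 5.07 ± 0.07 SE, adjusted p 2.97e-08). Me1, the cytosolic malic enzyme, was at 659, 517 and 601 CPM in TG+ and at 284, 320 and 280 CPM in TG- (2.01-fold, log2 1.01, adjusted p 0.00042). Both passed the threshold of the study. Aldh1l2 did so in all 15 alternatives, but Me1 in 8 of 15, since its log2 fold change was below 1 with DESeq2, with upper-quartile scaling, with centring on the median gene and without 43-26, 43-29, 43-75 or 43-76 (0.92 at the lowest). On the RPKM scale Me1, at 89.2 ± 10.7 in TG+ and 45.4 ± 3.31 in TG- (SD, n = 3), exceeded G6pdx in both groups. The cytosolic counterpart of Aldh1l2, Aldh1l1, fell by 0.57 (adjusted p 0.00094), and Mthfd1 of folate metabolism, the NAD kinase Nadk, and the isocitrate dehydrogenases Idh1 and Idh2 fell by 0.33, 0.28, 0.25 and 0.20.

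Among 11 users of NADPH, 2 rose and 3 fell at an adjusted p under 0.05 in edgeR, where 15.4% of all tested genes rose and 10.9% fell. Next to Hsd11b1, Cybb, the oxidase of phagocytes, rose by 0.82 (adjusted p 0.0078), from 10.7 to 16.6 CPM in TG- to 23.3 to 27.5 CPM in TG+, alongside the 8 immune markers given above. Nqo1, a quinone reductase, fell by 0.59 (adjusted p 0.00023), and Gsr, the glutathione reductase, and Por, the reductase of cytochromes P450, fell by 0.44 and 0.27. Without the TG- mouse 43-50, 3 of the 11 passed in all, while the share of all tested genes went from 26.2% to 17.2%.

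The genes whose log2 CPM followed G6pdx most closely over the 12 libraries were Rps19 (Pearson's r = 0.969), Emd (0.965), ENSMUSG00000091219 (0.962), D10Wsu102e (0.962) and Cldn4 (0.961). None of these 5 passed an adjusted p of 0.05 in edgeR, as G6pdx did not. Those closest to Tkt were Ank (0.985), Nampt (0.975), ENSMUSG00000042878 (0.973), Mpzl2 (0.973) and Slc2a5, a fructose transporter (0.969), and all 5 rose in TG+, by 0.37 to 0.89 on the log2 scale. Within the pathway Pgd followed G6pdx (r = 0.844, rank 248), and the others had r with G6pdx of 0.330 (Rpia), 0.286 (H6pd), 0.155 (Tkt), -0.412 (Rpe), -0.513 (Taldo1) and -0.634 (Pgls). Rpia followed Tkt with r = 0.746, and Rpe and Taldo1 ran against Tkt with r of -0.842 and -0.750. These values describe 12 libraries that share mice in pairs, and the correlations with Tkt include the difference between the genotypes.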

How the data were processed

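RNA from kidney cortex of 3 TG+ and 3 TG- mice, 2 kidneys each, was prepared with a TruSeq kit and sequenced by the authors on a HiSeq2000 (51 bp, single end), and the reads were analysed mainly with the Tuxedo tools. The submitters' processing notes name the build mm9. The counting program, annotation release and use of strand are not given in the sources used here. The authors deposited raw read counts per Ensembl gene for each of 12 libraries. In the deposited RPKM values, 1 had been added to each count, and the header names their scaling BUQ. Relative to the totals of the count table, their scale was 1.04 to 1.10 in TG+ and 0.932 to 0.957 in TG- libraries. The RPKM served only for levels per length. The columns of log2 RPKM and of the authors' own comparison (fold changes, p-values and q-values) were not used.

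Counts of the 2 kidneys of a mouse were summed. Library totals lay between 21888584 and 33704850 reads. Genes were kept by filterByExpr, scaled by TMM and tested with edgeR 4.0.16 (quasi-likelihood, R 4.3.3, limma 3.58.1), adjusted by Benjamini-Hochberg over 19399 genes. Intervals are at 95%. No label gives a batch, and p-values measure the spread between mice. The procedure was tested on simulated data. Likeness was Pearson's r of log2 (CPM + 0.5). Symbols came from GENCODE M21 by Ensembl identifier, matched for 32642 of 37681 genes. All 8 members had RefSeq promoter windows. Of coordinates, only those of these windows are printed, on GRCm38.p6, and none of gene bodies, because the build of the files differs. Python 3.11.15, numpy 2.4.6, pandas 2.3.3, scipy 1.17.1 and matplotlib 3.10.9 were used.

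The members and the lists were chosen with earlier results of these data known. The genes named are the 8 members, in each related list those past the threshold of the study or else the up to 3 with the smallest adjusted p, and the 5 most like G6pdx and Tkt. Any further gene was named after its values were seen. 1 gene of the related lists is not reported here. The alternatives were DESeq2 1.42.0, no filter, each kidney as its own library, each kidney alone, a replicate block, 3 other scalings, leaving out each mouse and, added later, the summed reads of G6pdx and G6pd2.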

Additional observations from a re-analysis of the deposited data

How the results depend on the processing

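Tkt kept a positive and Taldo1 a negative sign under every alternative run, with log2 fold changes of 0.21 to 0.38 and -0.27 to -0.13. No member reached the threshold of the study under any of the 16 alternatives. The count of members with an adjusted p under 0.05 was 1 to 2 when 1 mouse was left out (1 without each of the TG- mice 43-26, 43-50 and 43-76), and 4 when each kidney was its own library, which treats the kidneys of a mouse as independent (Rpia and Rpe were added). The share of all tested genes was 16.2% to 24.4% and 45.9% in those fits. Scaling by library size alone gave 3 (Tkt, Pgd and Rpia, beside 28.1% of all genes), moved the median of the 8 members to 0.18, raised that of all genes to 0.13 and turned Pgls to 0.046. H6pd turned negative with DESeq2 (-0.0074), no filter (-0.00058), kidney 2 alone (-0.0075), upper-quartile scaling (-0.0083) and centring on the median gene (-0.0076), and ranged from -0.060 to 0.052 when 1 mouse was left out. The causes were not tested.

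Of the related lists, genes passing numbered 2 of the side enzymes and 5 of the ribose to nucleotides list with each kidney as its own library (beside 45.9% of all tested genes). They numbered 3 of pentose salvage in kidney 1 alone (beside 21.8%). When 1 mouse was left out, the side enzymes had 1 to 2 (2 without the TG+ mouse 43-49, beside 24.4% of all tested genes). The NADPH users then had 3 to 5 (3 without the TG- mouse 43-50, beside 17.2%).

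The table's name pairs the mice 43-26 with 43-29, 43-49 with 43-50 and 43-75 with 43-76. The deviations of paired mice from their group means correlated with r of 0.39, 0.33 and -0.07, and 43-75 correlated better with 43-50 (0.09), so the numbers were not taken as pairs. A replicate block over these pairs left 2 members past an adjusted p of 0.05, where 30.5% of all tested genes passed (26.2% in the main fit). It gave a log2 fold change of 0.26 for Tkt (adjusted p 0.013) and -0.24 for Taldo1 (0.024). With that general rise, the side enzymes moved to 3 (with Tigar, adjusted p 0.038), the ribose to nucleotides list to 2 (with Prps1, 0.043) and the NADPH users to 7.

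Each member had at least 622 reads in a mouse. Only 3 mice per group were measured, and the exact permutation test cannot go below 0.1.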

Other observations

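Of 8 targets of NRF2, the regulator that is known to raise pentose phosphate genes with antioxidant genes, 2 rose and 2 fell at an adjusted p under 0.05 in edgeR (15.4% and 10.9% of all tested genes), with a median log2 fold change of 0.05. Slc7a11, a cystine transporter, was at 5.96, 5.98 and 5.52 CPM in TG+ and at 2.87, 2.26 and 2.15 CPM in TG- (log2 1.26 ± 0.14 SE, adjusted p 0.00065). Hmox1, heme oxygenase 1, which HIF1α is also known to raise, was at 110, 71.9 and 90.0 CPM in TG+ and at 54.9, 42.9 and 33.9 CPM in TG- (log2 1.05 ± 0.20 SE, adjusted p 0.0077). Both passed the threshold of the study, whereas Nqo1 and Gsr fell. Hmox1 lost that call without 43-29, 43-50, 43-75 or 43-76 (adjusted p up to 0.029, log2 0.87 at the lowest). Gclm, Srxn1 and Txnrd1 had log2 fold changes of 0.03, 0.06 and -0.07. Gclc, a subunit of the enzyme that starts glutathione synthesis, spread from 332 to 621 CPM in TG+ and from 243 to 392 CPM in TG-, so its groups overlapped (log2 0.66 ± 0.24 SE).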
